A study of Mus musculus with 2 samples.

Results

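Clustered protocadherin genes were described in DNase-seq of the mouse adrenal gland. They were taken as the GENCODE M21 protein-coding genes on chromosome 18 whose symbols name a variable exon of the Pcdha, Pcdhb or Pcdhg cluster, which gave 57 gene IDs of 21670 protein-coding genes on chromosomes 1 to 19 and X. Of these, 12 were alpha genes, 22 beta genes, 12 gamma A genes, 6 gamma B genes and 5 C types. The annotation gives 2 gene IDs the symbol Pcdha11, and the upstream one is Pcdha10 in RefSeq. The material was adrenal gland from female B6CASTF1/J mice at 4 days of age, the only genotype, tissue and age in the study, with no second group. B6CASTF1/J animals are first-generation hybrids of a laboratory strain and a wild-derived strain, and alleles were not separated. The 2 libraries are named biological replicates 1 and 2. The descriptions mention 3 females per sample and the same donor identifier stands on both, and nothing in the labels says whether animals were pooled.

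Clustered protocadherins are cadherin-like cell-surface proteins that are best known from neurons, where each cell uses its own small set of them and matching sets on neighbouring membranes tell self from non-self. In the alpha and gamma clusters each variable exon has its own promoter and is spliced to a shared set of constant exons. The beta genes each consist of a variable exon without constant exons. Promoter choice in neurons is known to depend on CTCF and cohesin, which join promoters to enhancers downstream of the clusters, while the repressor REST is known to act at an enhancer of the alpha cluster. The C types lie at the ends of the alpha and gamma clusters and are used by neurons in a more regular way than the other variable exons.

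DNase I cuts accessible DNA, a peak is a local excess of cuts, and a footprint is a short protected stretch. On chromosomes 1 to 19 and X, replicate 1 had 45983 peaks and 98298 footprints, and replicate 2 had 87306 peaks and 141925 footprints. No source used here states the read depth, so no counting error could be attached to a peak. Each peak carries the authors' own signal value, whose scale is not given, and values of the 2 libraries are therefore set side by side but not divided by each other. The adrenal label was checked on gene windows made in the same way as those of the protocadherins. Peaks lay in both libraries at the cortex genes Nr5a1, Scarb1 and Cyp11a1 and at the chromaffin genes Chga, Chgb, Phox2a, Hand2 and Slc18a1. No peak lay in either library at the windows of Cyp11b1, Cyp11b2, Hsd3b1, Mc2r, Th, Dbh, Ddc or Pnmt. None of the 4 leukocyte markers had a peak.

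Few protocadherin windows held a peak in both libraries, and replicate 2 held more than replicate 1. A member was scored when a peak overlapped its first exon or the 1 kb upstream. In replicate 1, 5 of the 57 members (8.77%) had such a peak, against 56.9% of all protein-coding genes. In replicate 2, 26 members (45.6%) had one, against 60.5% of all genes. Replicate 2 has the longer peak list, and with only its strongest peaks, as many as replicate 1 has, 11 members (19.3%) had one, against 55.2% of all genes. The same 5 members were found in both libraries, where 55.8% of all genes had a peak in both. In bulk tissue, fewer cells with an open promoter and a less open promoter in each cell cannot be told apart.

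**Figure D1:**
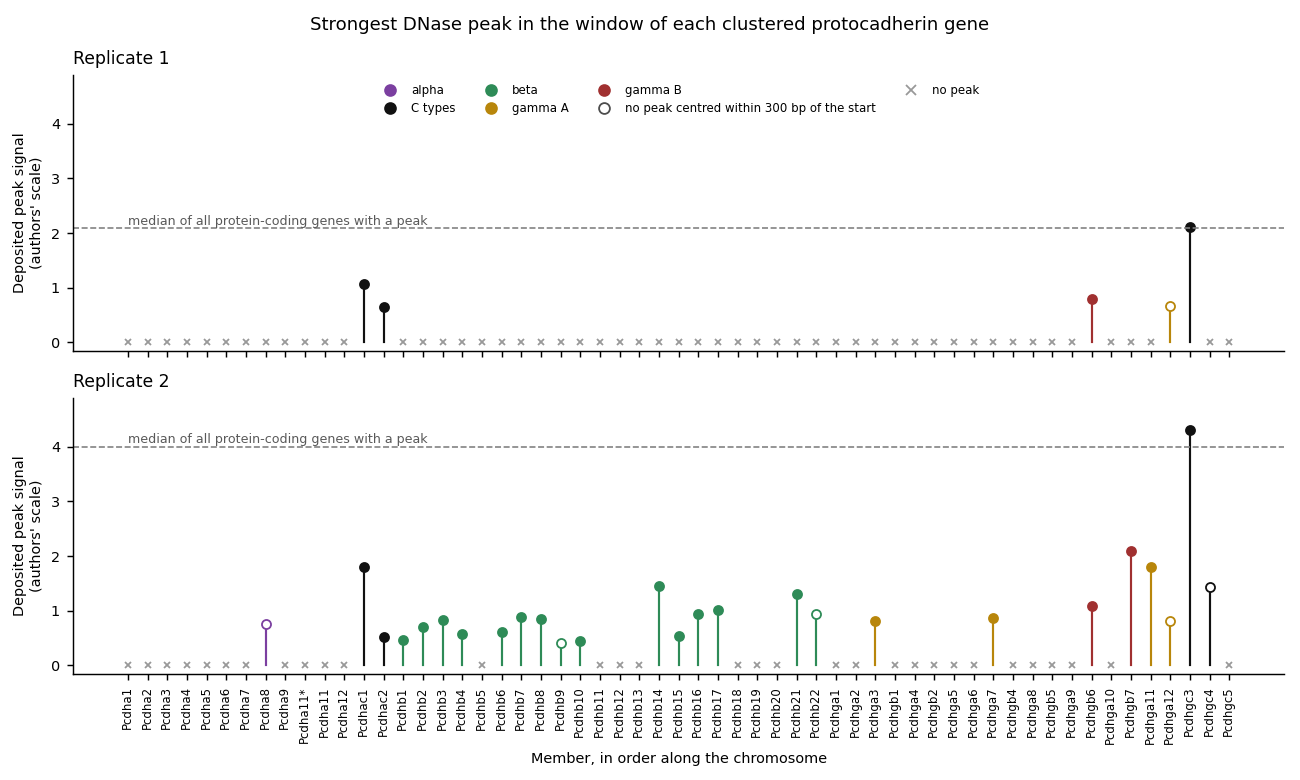
The vertical axis is the deposited signal of the strongest peak in the window of each member, on the authors' scale, and the horizontal axis lists the 57 members along the chromosome; colours mark the clusters, crosses mark members without a peak, open circles mark members with no peak centred within 300 bp of the start, and the asterisk marks the gene ID named Pcdha10 in RefSeq. Replicate 1 shows 5 members with a peak and replicate 2 shows 26, and Pcdhgc3 is highest in both panels.

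Where a member did have a peak, its signal was low for a gene window. The members' median was 0.785 in replicate 1 (n = 5 members) and 0.862 in replicate 2 (n = 26 members). Over all protein-coding genes with a peak the medians were 2.09 and 4.00 in the same libraries. Pcdhgc3 alone passed both of those medians. In the stricter, shorter peak lists, 3 members were found in replicate 1 and 9 in replicate 2, against 50.9% and 54.6% of all genes. Counting any position with a false discovery rate of the cut rate below 0.05 gave 5 and 27 members, against 58.1% and 61.7% of all genes. Footprints lay in the windows of 5 members in replicate 1 and of 24 in replicate 2, against 54.3% and 57.7% of all genes.

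Of the 5 C types, 3 had a peak in both libraries, namely Pcdhac1, Pcdhac2 and Pcdhgc3. Pcdhgc3, the most upstream C type of the gamma cluster, had the highest signal of any member, 2.12 in replicate 1 and 4.31 in replicate 2. Its peaks at chr18:37806161-37806480 and chr18:37806221-37806460 were centred upstream of the annotated start, by 90 bp in replicate 1, and the lowest false discovery rates in the window were 2.63e-06 and 7.39e-11. Replicate 2 also held a peak of 1.81 inside its variable exon, 565 bp past the start. Pcdhgc3 stood at percentile 50.9 and 54.0 of all genes with a peak, the middle of their range.

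Pcdhac1, the first C type of the alpha cluster, reached 1.07 in replicate 1 and 1.79 in replicate 2, from peaks of 220 bp centred 43 and 63 bp upstream of its start. Pcdhac2, the second, had 0.648 in replicate 1 and 0.519 in replicate 2. Its replicate 2 peak was 797 bp wide and covered the start, with an 80-bp peak of 0.405 nested in it. Pcdhgc4 had a peak of 1.43 in replicate 2 alone. Pcdhgc5, the last variable exon before the gamma constant exons, had none.

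Of the 22 beta genes, 15 had a peak in replicate 2 and none had one in replicate 1. Of those, 13 had a peak centred within 300 bp of the start, with signals between 0.449 and 1.44 and a median of 0.827. The highest were Pcdhb14 with 1.44, Pcdhb21 with 1.30 and Pcdhb17 with 1.02. Pcdhb16 and Pcdhb22 had 0.932 each, Pcdhb7 had 0.880, Pcdhb8 had 0.853 and Pcdhb3 had 0.827. Lower values were found at Pcdhb2 with 0.695, Pcdhb6 with 0.616, Pcdhb4 with 0.572, Pcdhb15 with 0.528, Pcdhb1 with 0.466 and Pcdhb10 with 0.449. Of these genes, Pcdhb10, Pcdhb14, Pcdhb16, Pcdhb17 and Pcdhb21 were also in the stricter list. The peak of Pcdhb22 is shared with the far end of the long Pcdhb21 exon. Pcdhb9 had only a peak of 0.413 inside its exon, 1942 bp past the start. The beta genes without a peak in either library were Pcdhb5, Pcdhb11, Pcdhb12, Pcdhb13, Pcdhb18, Pcdhb19 and Pcdhb20, and these included the neighbours Pcdhb11 to Pcdhb13 and Pcdhb18 to Pcdhb20.

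In the gamma cluster, peaks lay mostly towards its downstream end. Pcdhgb6 had a peak in both libraries, with signals of 0.785 in replicate 1 and 1.09 in replicate 2. In replicate 2 alone, Pcdhgb7 had 2.08, exceeded among members only by Pcdhgc3, and Pcdhga11 had 1.79, as had Pcdhac1. Pcdhga3 with 0.818 and Pcdhga7 with 0.871 were the only gamma members upstream of Pcdhgb6 with a peak. The other gamma A genes upstream of Pcdhga11, and Pcdhgb1, Pcdhgb2, Pcdhgb4 and Pcdhgb5, had none. Among members without a peak, Pcdhga5 alone had positions below a false discovery rate of 0.05, over 6 bp of replicate 2 and no lower than 0.0391.

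Pcdhga12, the last gamma A gene, had peaks of 0.657 in replicate 1 and 0.818 in replicate 2, but neither was at its promoter. They were centred 2736 and 2658 bp past its start, within the variable exon, at chr18:37768257-37768375 and chr18:37768143-37768333. The nearest annotated start of any gene was that of Gm26672, a noncoding transcript on the opposite strand, 74 and 4 bp away. DNase signal carries no strand, so a count of accessible protocadherin promoters in both libraries leaves Pcdhga12 out. That count stands at 4: Pcdhac1, Pcdhac2, Pcdhgb6 and Pcdhgc3. Of all genes, 51.7% had a peak centred within 300 bp of the start in both libraries.

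The alpha genes outside the C types were almost without signal. Of the 12, none had a peak in replicate 1, and Pcdha8 alone had one in replicate 2, with a signal of 0.756. That peak, chr18:36992861-36992960, lay inside the variable exon and was centred 539 bp past the start. No position with a false discovery rate below 0.05 lay in the windows of the other alpha genes in either library. Variable exons of a cluster resemble each other, which can leave reads without a unique place. Stretches of 36 bases that recur elsewhere in the locus made up a median of 20.0% of the first exons of alpha genes, 19.4% in gamma B genes, 7.02% in beta genes, 1.67% in gamma A genes and 0% in C types. In the 500 bp around the starts the median was 3.76% for alpha genes and 9.89% for gamma B genes. It was 0% for beta genes, gamma A genes and C types. The part of repeated sequence in these counts was not tested.

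**Figure D2:**
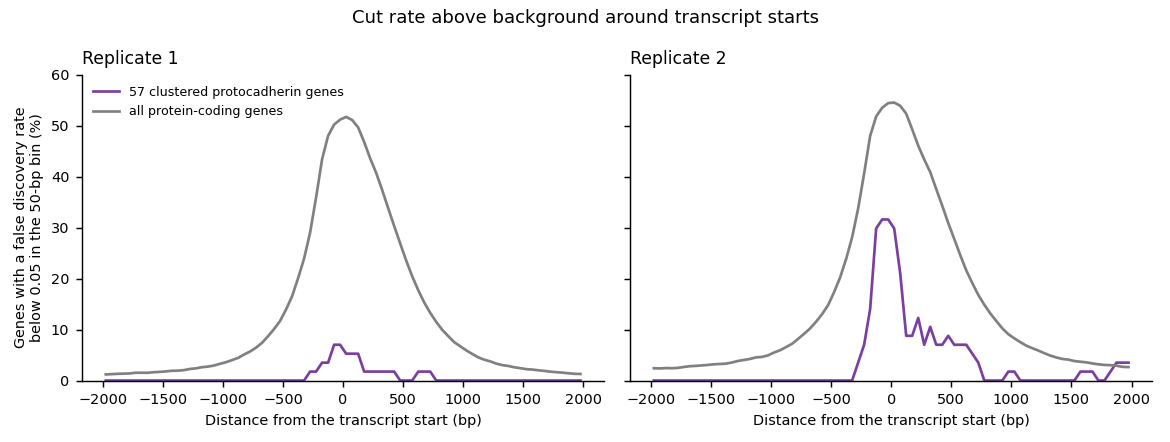
The vertical axis is the share of genes with a false discovery rate below 0.05 in each 50-bp bin, in percent, and the horizontal axis is the distance from the annotated transcript start in bp, for each library. The members reach 7.02% in replicate 1 and 31.6% in replicate 2 in the 50 bp before the start, below the 51.2% and 54.4% of all protein-coding genes.

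The position of member peaks was measured from the annotated start and from the start codon. Peaks centred within 300 bp of a start numbered 4 members in replicate 1 and 21 in replicate 2, against 53.2% and 56.9% of all genes. Their median width was 230 bp in replicate 1 and 140 bp in replicate 2, against 190 and 160 bp for all peaks of those libraries. Measured from the start codon, 22 members had a replicate 2 peak centred 100 to 300 bases upstream, against 21.2% of all genes, and in replicate 1 there were 3, against 17.9%. That range was chosen after the peaks had been seen. Within it, the 22 centres fell between 139 and 257 bases before the start codon, with a median of 221.5. The chosen transcripts of Pcdhb17, Pcdhb22 and Pcdhgc4 start upstream of the peak, with peak centres 135, 419 and 315 bp inside, and the same centres lay 229, 191 and 139 bases before the start codon. For Pcdhb22 and Pcdhgc4, another annotated start of the gene lay 69 and 7 bp downstream of the peak centre. Starts were taken from the chosen transcripts alone, so the 21 members leave these 2 genes out. Outside the range, Pcdhb1 had a 409-bp peak centred 138 bases past its start codon, and the stronger replicate 1 peak of Pcdhac2 was centred 409 bases before its start codon.

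**Figure D3:**
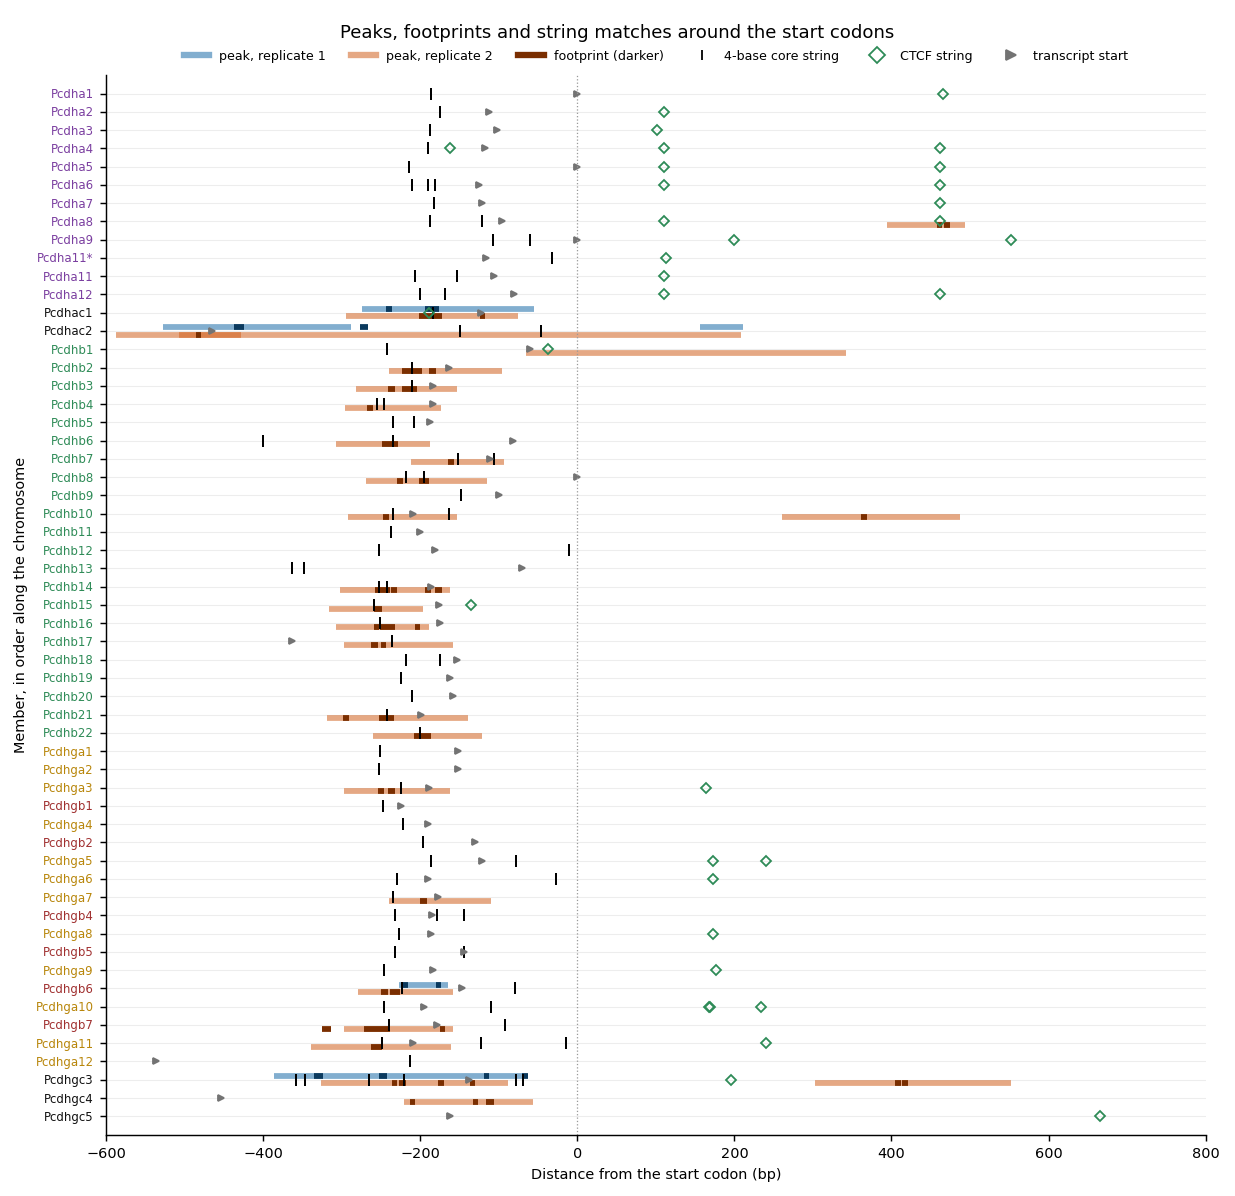
Each line is a member in order along the chromosome and the horizontal axis is the distance from its start codon in bp; pale bars are peaks of replicate 1 (blue) and replicate 2 (orange), darker segments are footprints, vertical ticks are matches to the 4-base core string, diamonds are CTCF strings and triangles are annotated transcript starts. In replicate 2, 22 members have a peak centred 139 to 257 bases before the start codon, where 21.2% of all protein-coding genes have a peak centred 100 to 300 bases before theirs.

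The stretch under these peaks held a recurrent short string. Most, but not all, promoters of clustered protocadherins are known to share an element with the core CGCT at a set distance before the coding sequence. CGCT on the coding strand was found in the 400 bases before the start codon in 55 of 57 members, against 50.5% of all protein-coding genes with an annotated start codon. The 2 members without it were Pcdhgc4 and Pcdhgc5. It lay 150 to 260 bases before the start codon in 51 members, against 22.8% of all genes, a range chosen from the members' own positions. All 21 members with a replicate 2 peak centred within 300 bp of the chosen start had the string in that range. So did 30 of the 36 without such a peak. For 20 of the 21 it fell inside a peak, with Pcdhb1 as the exception. The 36 include Pcdhb22 and Pcdhgc4, with replicate 2 peaks centred 191 and 139 bases before the start codon. Of these 2 genes, Pcdhb22 had the string and Pcdhgc4 did not, so the share depends on the set of peaks taken. A replicate 2 footprint overlapped a CGCT in 11 of the 21, and covered all 4 of its bases in 7. Some of the 21 held several CGCT matches, and 20 of them had a footprint somewhere in a near-start peak. Footprints took up 10.6% of the bases of the near-start peaks in replicate 2. No share over all genes was taken for this overlap, so it is not read as protection of the string. A match is a description of the letters, not a measured binding site.

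CTCF binding was not measured. A short CTCF-like string (CC, any 3 bases, AG, any 2 bases, GGC, on either strand) was found in the windows of 45 members (78.9%), against 29% of all genes. The members' windows were longer, with a median of 3611 bp against 1212 bp. In the 1 kb upstream alone, where lengths are equal, 5 members (8.77%) had the string, against 20% of all genes. The search allowed no mismatch at the fixed letters, so a CTCF site that departs from the string was not counted. Whether the CGCT matches lie in CTCF sites was not tested. A stricter string with G at the second set of free positions was found in 0 members, against 3.43% of all genes. The matches within exons recurred at matching places. In the alpha cluster, 8 of 12 genes had it within 6 bases of position 110 after the start codon, and 7 had it within 6 bases of position 462, each on the coding strand. In the beta cluster, 9 of 22 genes had it 1487 to 1496 bases after the start codon on the coding strand and 13 had it 2206 to 2212 bases after on the other strand. In gamma A, 6 of 12 genes had it 164 to 176 bases after the start codon.

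Of 82 such matches in member windows, 2 lay in a replicate 1 peak and 4 in a replicate 2 peak. At Pcdhac1 the match lay 189 bases before the start codon, within a peak in both libraries. It lay partly under a footprint in replicate 1 and wholly under one in replicate 2. This match shared a base with the CGCT of the same gene, which the replicate 2 footprint also covered. At Pcdha8 the match at position 462 lay within the gene's single peak and partly under a footprint in replicate 2. The string stands within 6 bases of that position in 6 other alpha genes, which had no peak. At Pcdhb1 the match lay in the replicate 2 peak, and at Pcdhga12 it lay in the exonic peak of both libraries, and in neither gene did a footprint overlap the match. A REST string, searched with at most 4 mismatches at its 19 fixed letters, was found in the windows of 3 members (5.26%), against 1.34% of all genes. These were Pcdhac1, Pcdhga4 and Pcdhga5, each with the match 1925 to 1946 bases past the start codon and outside any peak. The members' longer windows apply to this count too. In the 1 kb upstream alone, 0 members had the REST string, against 0.554% of all genes.

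**Figure D4:**
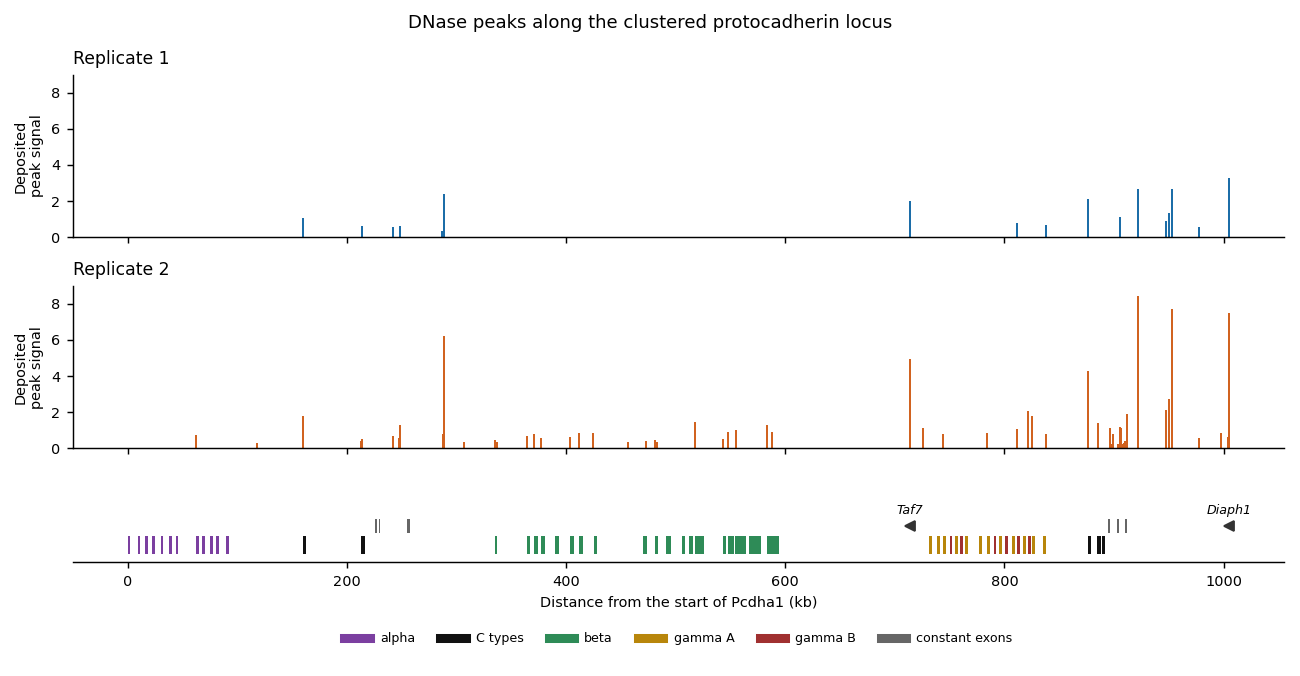
The vertical axis is the deposited peak signal on the authors' scale and the horizontal axis is the distance from the start of Pcdha1 in kb; the lowest strip shows the variable exons by cluster, the constant exons in grey and the starts of Taf7 and Diaph1. The highest peaks stand between and beyond the variable exons, with the Diaph1 promoter highest in replicate 1 at 3.27 and a site inside Diaph1 highest in replicate 2 at 8.44, while the beta and alpha exons carry peaks below 1.5.

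Several peaks downstream of the constant exons had higher signals than any variable-exon promoter. Downstream of the alpha constant exons, chr18:37218281-37218460 reached 2.41 in replicate 1, and chr18:37218281-37218440 reached 6.21 in replicate 2. This site lies 30.7 kb past the constant exons, at percentile 87.5 of all peaks of replicate 1 and 95.4 of replicate 2, above the signal of Pcdhgc3 in both libraries. A weaker peak stood about 1 kb before it in each library, 0.324 at chr18:37217341-37217420 in replicate 1 and 0.818 at chr18:37217421-37217580 in replicate 2, adjacent without sharing a base. Within the alpha interval between Pcdhac2 and the last constant exon, 2 sites were shared. One, near chr18:37172301-37172488, had 0.580 in replicate 1 and 0.712 in replicate 2. The other had 0.606 and 1.29 and was centred 54 and 36 bp from the start of the noncoding transcript Gm10544.

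Beyond the gamma constant exons, peaks lay inside and at the start of Diaph1, the neighbouring gene for a formin that builds actin filaments. The site 10.4 kb past the constant exons, chr18:37852181-37852420, had 2.69 in replicate 1, and its counterpart chr18:37852221-37852400 had 8.44 in replicate 2. A second, chr18:37883561-37883720, 41.8 kb past them, had 2.69 in replicate 1 and 7.73 in replicate 2 with identical ends. Another, starting at position 37880241 in both libraries, had 1.31 and 2.72. Which of these sites correspond to named enhancers was not determined, because no source used here gives their coordinates. The promoter of Diaph1 itself had 3.27 and 7.51.

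The interval that holds the gamma constant exons had more peaks in replicate 2. From the end of Pcdhgc5 to the end of the last constant exon, 19.7 kb, replicate 1 had a single peak, of 1.13 at chr18:37835526-37835703, and replicate 2 had 17. One of the 17 overlapped the replicate 1 peak, with 1.13. The median of the 17 was 0.246, and 12 were below 0.4, a level under which 16.6% of all replicate 2 peaks fell. Of those 12, 9 were in the stricter list, where 40.0% of all replicate 2 peaks below that level were found. Of the 17, 3 overlapped a constant exon, all 3 the last one. The constant exons measure 59, 89 and up to 1971 bp within these 19.7 kb.

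Of the genes between and beside the clusters, 3 had a peak in both libraries. Taf7, a gene for a general transcription factor subunit between the beta and gamma clusters, had 1.99 in replicate 1 and 4.94 in replicate 2. Diaph1 had the values above, and Hdac3, a histone deacetylase gene beyond it, had 3.44 and 7.38. Slc25a2, a mitochondrial carrier gene, had no peak in either library. The read-through genes Gm42416, Gm37013 and Gm37388, which span several variable exons, had none at their own first exons.

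The non-clustered protocadherins lie outside the clusters and do not share constant exons. Of 12, 9 had a window peak in replicate 1 and 8 in replicate 2, with 8 in both, where the shares of all genes were 56.9%, 60.5% and 55.8%. The regulators and partners below are read against the same shares. The 8 were Pcdh1, Pcdh7, Pcdh8, Pcdh9, Pcdh10, Pcdh17, Pcdh18 and Pcdh19, and their signals lay between 0.887 and 2.42 in replicate 1 and between 1.92 and 4.95 in replicate 2. Pcdh11x had a peak in replicate 1 alone, with 0.426. Pcdh12, Pcdh15 and Pcdh20 had none. Of 24 genes for regulators of the clusters, 23 had a peak in replicate 1 and 24 in replicate 2, among them Ctcf with 2.44 and 4.82, the cohesin gene Rad21 with 2.62 and 6.01, Rest with 2.05 and 3.30, and Smchd1, known to silence the clusters, with 2.52 and 3.95. Wiz had a peak in replicate 2 alone. Of 16 genes for partners of protocadherin proteins, 12 had a peak in both libraries, including Fyn, Ptk2, Wasf1 and Ctnnb1. Ptk2b and Cyfip2 were among those with none.

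Most protocadherin peaks of replicate 2 had no counterpart in replicate 1. Of the 26 members with a replicate 2 peak, 5 (19.2%) also had one in replicate 1, against 92.3% of all genes with a replicate 2 peak. Low signal goes with low recurrence across all genes, so the share was also taken within ranges of replicate 2 signal. From 0.5 to 1, 2 of 14 members recurred, against 55.4% of all genes. From 1 to 2, 2 of 7 members recurred, against 84.3% of all genes. These shares describe 2 libraries and neighbouring members of 1 locus, and no test was made.

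**Figure D5:**
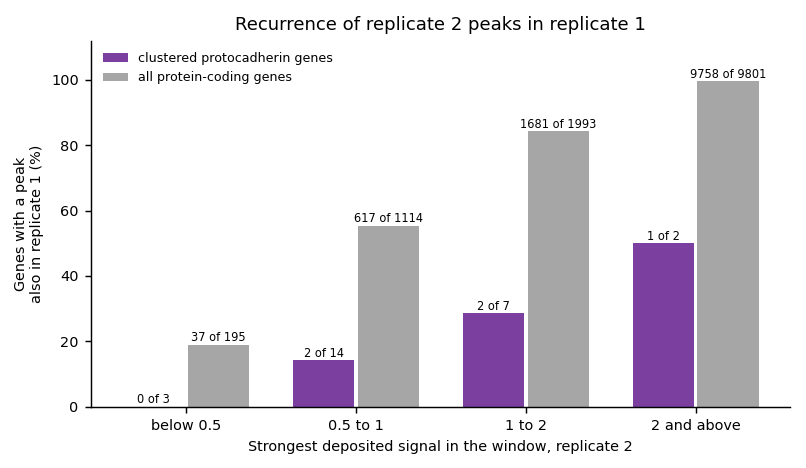
The vertical axis is the share of genes with a replicate 2 window peak that also had one in replicate 1, in percent, and the horizontal axis groups genes by the strongest replicate 2 signal; figures over the bars are counts of genes. Members are at 2 of 14 and 2 of 7 in the middle ranges, where all protein-coding genes are at 55.4% and 84.3%.

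Marker counts of other cell types are given beside this, in libraries where the share of all genes with a peak was 56.9% in replicate 1 and 60.5% in replicate 2 and their median signal was 2.09 and 4.00. Of 9 neuronal markers, 3 had a peak in replicate 1 and 5 in replicate 2, with summed signals of 1.95 and 4.33, and Elavl3, Elavl4, Prph and Stmn2 had none in either. Of 6 Schwann and glial markers, 2 and 3 had a peak, summing to 4.51 and 10.5, and Sox10 and S100b were among those with none. Of 10 chromaffin markers, 6 and 5 had a peak, summing to 7.14 and 15.6. Of 9 cortex markers, 3 and 5 had a peak, summing to 5.53 and 19.0. Fibroblast and capsule markers gave 3 and 4 of 6, summing to 2.00 and 4.81, and endothelial markers 2 and 3 of 6, summing to 1.91 and 4.13. The part of cell composition in the difference between libraries was not tested.

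Base composition was taken around the starts. In the 500 bp around the start, the median share of G and C was 44.2% in members and 58% in all genes. The ratio of observed to expected CpG dinucleotides had a median of 0.540 in members, from 0.069 to 1.06, and 0.618 in all genes. Members with and without a replicate 2 peak near the start had median CpG ratios of 0.515 (n = 21) and 0.553 (n = 36).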

How the data were processed

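Per the labels, DNase-seq was made from 2 adrenal gland samples on assembly mm10. The authors deposited 2 peak lists, false discovery rates and footprints for each library, called per library. The deposited signal of a peak is the authors' own value. The deposited false discovery rates are adjusted p-values below 0.05, and each footprint carries 0.01, taken as a p-value threshold. No source used here names the tools, the depth or the filters. The longer peak list was the main one and the shorter the stricter one. Positions were set against GRCm38.p6 with GENCODE M21, and 1 coding transcript per gene gave the first exon and start. Windows held the first exon and 1 kb upstream, and an overlap of 1 bp counted. Strings were searched in the reference sequence. Python 3.11.15, pandas 2.3.3 and numpy 2.4.6 were used, and overlap and string searches were tested on simulated data. All members with a peak are named, with fixed lists of related genes and markers, of which some genes are not reported here. The members and lists were chosen with earlier results of these data known. With 1 group of 2 libraries no test was made. The core string, the distances from the start codon and the signal ranges were chosen after seeing the data. Peak lists, upstream lengths, window kinds, mismatches and single libraries were varied.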

Additional observations from a re-analysis of the deposited data

How the results depend on the processing

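The count of 5 members with a peak in both libraries was 2 with the shorter lists, 3 with equal peak numbers and 26 for a peak in either library (61.6% of all genes), and with 1 library left out it ranged from 5 to 26. It stayed at 5 with 500 bp or 2 kb upstream, with the centre inside the window and with all coding transcripts, and was 4 within 1 kb of the start and, chosen after seeing the data, with the centre within 300 bp. Footprints in both libraries, 5, became 24 in either and 5 to 24 with 1 left out. The 45 members with a CTCF string became 0 with a stricter string (3.43% of all genes) and 5 in the upstream 1 kb alone (20%). The 3 members with a REST string became 0 with at most 3 mismatches (0.36% of all genes), 21 with at most 5 (7.8%) and 0 upstream alone (0.554%). The 4 shared sites past the last alpha and gamma variable exons became 2 with the shorter lists and 5 to 24 with 1 library left out. With Diaph1 added, chosen after seeing the data, they became 8. Of the 4, only the site 30.7 kb past the alpha constant exons lay downstream of constant exons. No paired analysis was possible because there is only 1 group. The read depth is unknown, so a missing peak means not detected, not closed.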
